A study of Mus musculus with 20 samples.

Results

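The 9 genes B2m, H2-D1, H2-K1, Tap1, Tap2, Tapbp, Nlrc5, Psmb8 and Psmb9 encode the core of the MHC class I presentation pathway, and they were taken by symbol from a table of 55487 gene identifiers. Each symbol matched 1 identifier, and all 9 genes passed the low-count filter, which left 16595 genes. Microglia, the resident macrophages of the brain, had been taken from 10 mice, with 1 library from tissue labelled cortex and 1 from tissue labelled brainstem of each mouse, so 20 libraries in all. The series compared microglia carrying the V600E form of Braf, a kinase that in this form signals to ERK without a stimulus, with control microglia in both regions, at 2 months and at a later time that the labels call end-stage.

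All mice came from pregnant females given 1 injection of 4-hydroxytamoxifen at 37.5 mg per kg on embryonic day 9.5, which activates a Cre recombinase driven from Cx3cr1 in early microglial progenitors. Records titled as mutant gave Braf VE; CX3 HET at both times. Records titled as 2-month controls gave Braf WT; CX3 HET. At end-stage 1 control, M1521, was Braf WT; CX3 HET, and the other, M1375, was Braf VE; CX3 WT. Both libraries of M1375 had more Cx3cr1, at 4400 and 5777 CPM, against 998 to 2854 CPM in the other libraries. CPM is the usual depth-adjusted unit of counts, here over the TMM-scaled library total. The sources used here do not give the share of microglia that carried the active allele or the way cells were purified.

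The genotype of the 2-month mice could be read 2 ways. The mouse number in the sample title and the number in the name of the count column differed for 5 of the 6 mice, and the genotype differed between the readings for 4 of them (M2617, M2618, M2621 and M2633). Here the genotype followed the mouse number in the column name, so that M2617, M2621 and M2624 were mutant and M2618, M2629 and M2633 were control. The records that hold the columns of M2617 and M2621 give Braf WT; CX3 HET. Those that hold the columns of M2618 and M2633 give Braf VE; CX3 HET, the opposite of the genotype used here. M2624 and M2629 had the same genotype under both readings. Every 2-month result below rests on this reading, and the main one is also given under the other.

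Library totals ran from 9395203 to 21171114 counts. Markers of microglia (8 genes, P2ry12 among them) summed to between 32210 and 61950 CPM in all 20 libraries. Of 14 T and NK cell markers only Klrd1 and Cd4 passed the low-count filter. The region labels could not be checked with patterning genes of neural tissue. The sum of 13 Hox genes, which are active in the hindbrain and silent in the cortex, was 0.599 to 4.04 CPM in cortex-labelled and 0.325 to 1.19 CPM in brainstem-labelled libraries. It was higher on the cortex side of 10 of 10 mice. Genes of cortex tissue summed to 0 to 1.51 and 0.271 to 1.96 CPM and were higher on the cortex side of 4 of 10 mice. Sums this low, in libraries of microglia, cannot decide whether the labels hold. Regions are therefore called by their labels.

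MHC class I molecules show short peptides from proteins made inside a cell to CD8-bearing T cells. The peptides are cut by the proteasome, in which Psmb8 and Psmb9 replace constitutive catalytic subunits to form the immunoproteasome, are pumped into the endoplasmic reticulum by the Tap1 and Tap2 transporter, and are loaded with the help of Tapbp (tapasin) onto a heavy chain, such as H2-K1 or H2-D1, bound to B2m. Nlrc5 is the transactivator of the genes of this pathway, and interferons raise most of them. In the healthy brain, class I presentation is low in most cell types and microglia are among the cells that can raise it.

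In GRCm38, 7 of the genes lie on chromosome 17 in the major histocompatibility complex. Tapbp spans chr17:33915899-33929292 on the plus strand and H2-K1 chr17:33996017-34000347 on the minus strand. Psmb9 (chr17:34181987-34187764, minus strand), Tap1 (chr17:34187553-34197225, plus strand), Psmb8 (chr17:34197721-34201454, plus strand) and Tap2 (chr17:34203527-34216321, plus strand) follow each other closely. H2-D1 spans chr17:35262730-35267499 on the plus strand. B2m is on chr2:122147686-122153083 and Nlrc5 on chr8:94434356-94527272, both on the plus strand.

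Promoters are shown because the genes moved together in these libraries. RefSeq windows on GRCm38.p6, from 250 bases before to 50 after a start site, were found for 7 of the 9 genes (not Tap2 or Nlrc5). H2-K1 has 2 such windows, of which 1 is printed. Each is written 5′ to 3′ on the strand of its gene, and capitals mark matches, on either strand, to 6 short motifs: GGGATTCCC (the core of a kappaB site), GAANNGAAA and GAAANNGAA (spaced pairs bound by interferon regulatory factors), TTCNNNGAA (the site of STAT dimers), TGACG (the core of the X2 box) and CCAAT (the Y box). The 4 windows below, in lower case outside the matches, are of the 2 classical heavy chains, their light chain and the transporter gene.
H2-K1, chr17:34000298-34000597, minus strand: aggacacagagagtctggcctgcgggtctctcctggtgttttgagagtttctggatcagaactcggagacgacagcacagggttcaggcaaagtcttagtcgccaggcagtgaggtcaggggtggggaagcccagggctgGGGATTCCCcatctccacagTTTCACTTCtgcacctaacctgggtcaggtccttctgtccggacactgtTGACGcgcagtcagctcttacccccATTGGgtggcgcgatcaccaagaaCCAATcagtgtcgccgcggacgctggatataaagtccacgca
H2-D1, chr17:35262844-35263143, plus strand: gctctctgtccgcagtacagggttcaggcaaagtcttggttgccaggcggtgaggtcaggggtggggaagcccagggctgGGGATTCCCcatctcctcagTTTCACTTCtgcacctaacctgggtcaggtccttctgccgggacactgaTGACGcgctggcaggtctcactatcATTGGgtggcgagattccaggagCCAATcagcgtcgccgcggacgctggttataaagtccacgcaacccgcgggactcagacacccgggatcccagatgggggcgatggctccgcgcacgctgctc
B2m, chr2:122147437-122147736, plus strand: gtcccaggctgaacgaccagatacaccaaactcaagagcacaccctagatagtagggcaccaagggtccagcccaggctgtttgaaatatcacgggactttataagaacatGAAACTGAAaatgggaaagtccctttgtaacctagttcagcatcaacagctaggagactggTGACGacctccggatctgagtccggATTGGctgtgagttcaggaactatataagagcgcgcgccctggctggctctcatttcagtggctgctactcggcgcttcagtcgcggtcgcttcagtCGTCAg
Tap1, chr17:34187306-34187605, plus strand: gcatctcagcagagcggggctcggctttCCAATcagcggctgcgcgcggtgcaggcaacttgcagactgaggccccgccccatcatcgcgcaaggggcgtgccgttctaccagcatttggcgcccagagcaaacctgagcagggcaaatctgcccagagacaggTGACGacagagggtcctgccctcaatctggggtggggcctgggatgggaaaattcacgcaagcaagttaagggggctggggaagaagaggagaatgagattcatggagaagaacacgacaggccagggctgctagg

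The 2 heavy chain promoters were alike. Aligned without gaps on GGGATTCCC, 176 of 240 bases (73.3%) were identical, and both held, in the same order, GGGATTCCC, GAANNGAAA on the reverse strand, TGACG and CCAAT on both strands. GGGATTCCC was in 0.353% of 32851 promoter windows of this length and GAANNGAAA in 7.52%. The B2m window held GAAANNGAA (8.56% of windows), TGACG (20.8%) and CCAAT (37.4%). Tap1 and Psmb9 have start sites that face away from each other, their windows cover much of the same bases, and each held TGACG and CCAAT. Psmb8 held TTCNNNGAA (8.3% of windows), and Tapbp held CCAAT. These are matches of letters only, and no binding was measured.

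In cortex-labelled libraries at 2 months, 8 of the 9 genes rose in mutant microglia, against 5.45% of all genes called in either direction and 3.64% called higher. The fitted rise was 5.5-fold or more in H2-D1, H2-K1, Nlrc5 and Tap1 and 1.92-fold to 2.28-fold in B2m, Psmb9, Tap2 and Psmb8. In all 9 genes every mutant library was above every control library, a pattern that 13.4% of all genes showed. The median log2 difference of the 9 genes was 1.19, and that of all genes was -0.01. This comparison asked whether mutant microglia differ from control microglia early in the model.

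**Figure D1:**
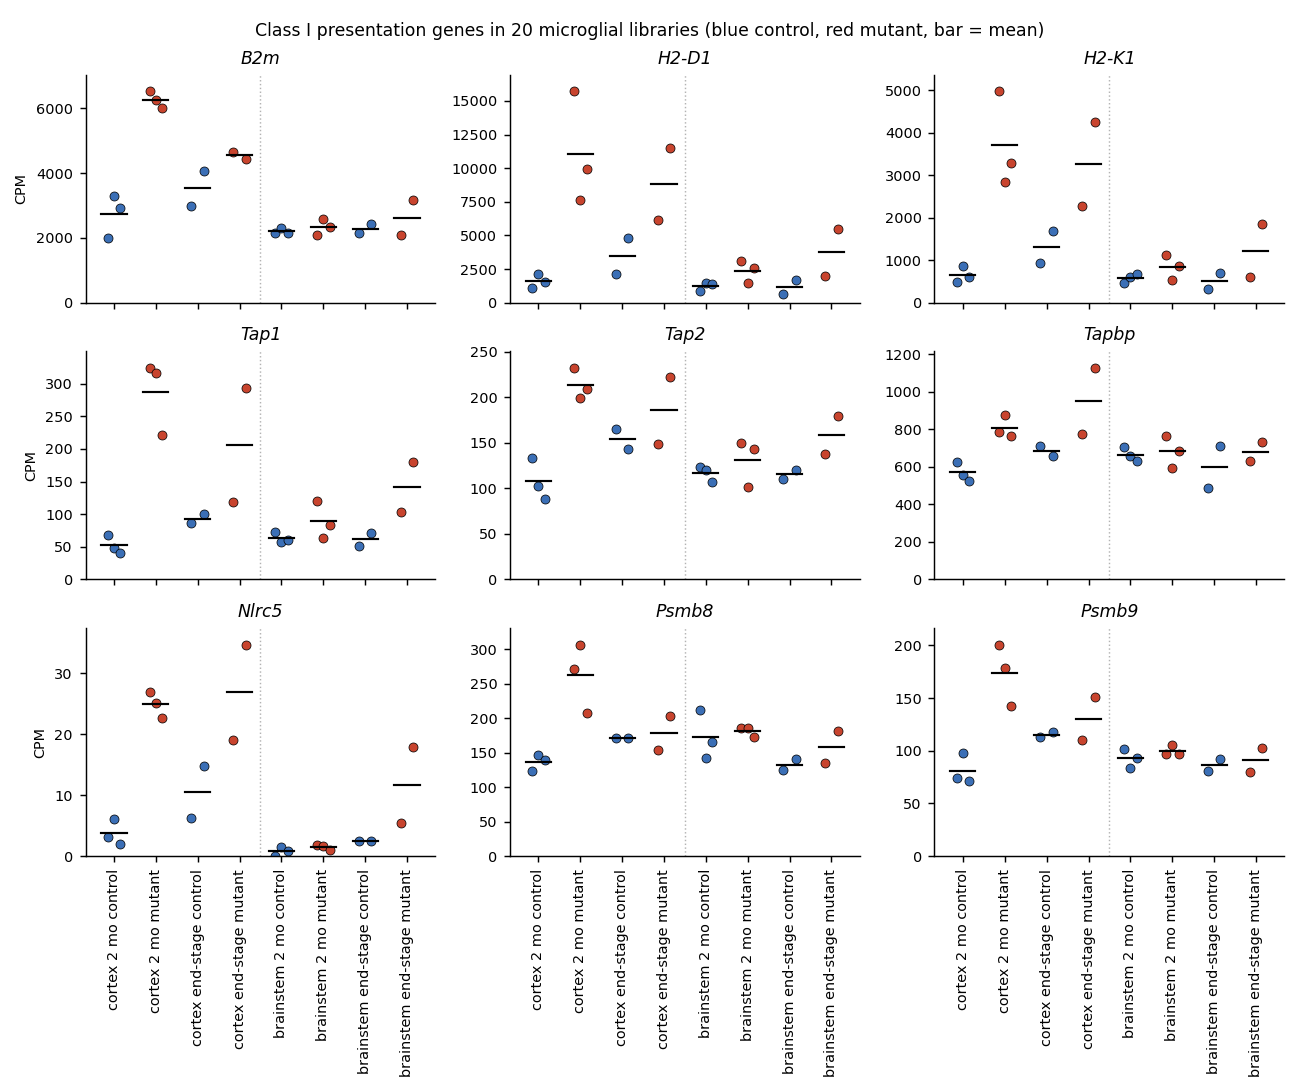
CPM (y axis, linear, from 0) of the 9 genes in the 20 libraries, by labelled region, stage and genotype; each point is 1 library and each bar a group mean. In cortex-labelled libraries at 2 months the 3 mutant points lie above the 3 control points in every panel, as in B2m with a lowest mutant value of 6000 CPM and a highest control value of 3303 CPM.

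H2-D1, a classical heavy chain, stood at 15710, 7618 and 9958 CPM in mutants M2617, M2621 and M2624 and at 1076, 2103 and 1565 CPM in controls M2618, M2629 and M2633. The lowest mutant was more than 3 times the highest control. The log2 difference was 2.81 ± 0.47 (SE; edgeR quasi-likelihood test, adjusted p = 0.0022), or 7.02-fold.

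H2-K1, the other classical heavy chain, followed the same order of mice. It stood at 4971, 2841 and 3299 CPM in the 3 mutants and at 479, 854 and 616 CPM in the 3 controls. The log2 difference was 2.51 ± 0.43 (edgeR adjusted p = 0.0024). M2617 was the highest library for both heavy chains and M2618 the lowest of this set.

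B2m, the light chain shared by class I molecules, had the narrowest spread among mutants relative to its mean. It stood at 6517, 6239 and 6000 CPM in mutants and 2002, 3303 and 2933 CPM in controls. The groups were far apart, and the log2 difference was 1.19 ± 0.18 (edgeR adjusted p = 0.00115), or 2.28-fold.

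Tap1, a subunit of the peptide transporter, had the smallest adjusted p of the 9 genes. It stood at 324, 316 and 222 CPM in mutants and 67.5, 48.7 and 40.2 CPM in controls. Its log2 difference was 2.46 ± 0.33 (edgeR adjusted p = 0.000571), or 5.5-fold. Its partner Tap2 stood at 232, 200 and 209 CPM in mutants and 133, 103 and 88.8 CPM in controls, a log2 difference of 0.98 ± 0.19 (edgeR adjusted p = 0.00495). Both subunits were higher in every mutant than in any control.

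Tapbp, which holds the empty heavy chain at the transporter, was the gene that did not pass. It stood at 785, 876 and 762 CPM in mutants and 628, 559 and 527 CPM in controls. The groups did not overlap, but the log2 difference was 0.50 ± 0.16 with an edgeR adjusted p of 0.0819. DESeq2 called all 9 genes in this comparison, Tapbp included. The share of all genes that DESeq2 called is not given, here or in the comparisons below.

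Nlrc5 was low in every library. It stood at 26.9, 25.1 and 22.7 CPM in mutants and 3.23, 6.16 and 1.98 CPM in controls. The log2 difference was 2.71 ± 0.66 (edgeR adjusted p = 0.0201). This call was the least firm of the 8, since it was lost without M2617, M2621, M2624 or M2633 (edgeR adjusted p = 0.0627, 0.0566, 0.0506 and 0.111).

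Psmb8 and Psmb9, the inducible proteasome subunits, both rose. Psmb8 stood at 272, 307 and 208 CPM in mutants and 124, 147 and 140 CPM in controls (log2 difference 0.94 ± 0.18, edgeR adjusted p = 0.00435). Psmb9 stood at 200, 179 and 142 CPM in mutants and 74, 98 and 71.2 CPM in controls (log2 difference 1.10 ± 0.17, edgeR adjusted p = 0.00133). Per length of gene model, Psmb8 was 1.06 to 2.1 times the constitutive subunit Psmb5 in mutants and 0.39 to 0.605 times in controls. The ratio of Psmb9 to its constitutive counterpart Psmb6 was 0.436 to 0.677 in mutants and 0.183 to 0.284 in controls. That of the further inducible subunit Psmb10 to Psmb7 was 6.17 to 7.23 in mutants and 5.27 to 6.14 in controls. Such ratios also move with the constitutive subunit, so they do not measure the rise of the inducible one alone. Their size depends on the length used, here that of all annotated exons. It was 3381 bases for Psmb8 and 3660 for Psmb9, whose longest coding transcripts have 1628 and 1352. The ratios can therefore be compared between groups, but they do not show which subunit was the more abundant. In brainstem-labelled libraries at 2 months Psmb8 over Psmb5 was 0.676 to 1.39 in mutants and 0.361 to 0.679 in controls, where Psmb8 differed by 0.07 and Psmb5 by -0.90 on the log2 scale, neither called.

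Markers of other cells were read beside the class I rise. In cortex-labelled libraries at 2 months the sum of 6 monocyte markers was 152 to 196 CPM in mutants and 6.89 to 21.2 CPM in controls. Plac8 and Ms4a4c rose (5.65 ± 1.04 and 3.38 ± 0.69, edgeR adjusted p = 0.00394 and 0.00724). Ccr2 (1.24 to 1.49 CPM in mutants, 0.437 to 4.11 CPM in controls), Chil3 (at most 0.618 CPM) and Vcan (means of 0.272 and 0.0668 CPM) were low in both and did not pass. Ly6c2 was also low (at most 1.13 CPM in mutants) but higher in every mutant than in any control. Its means were 0.783 and 0.0441 CPM (4.05 ± 1.69, edgeR adjusted p = 0.206). T and NK cell markers summed to 2.87 to 17.1 CPM in mutants and 5.61 to 13.7 CPM in controls, nearly all from Klrd1. Neutrophil markers summed to at most 0.0661 CPM in these libraries. Of 6 endothelial markers Kdr (2.78 ± 0.45, 0.0018) and Flt1 (4.51 ± 1.23, 0.0394) rose, with sums of 52.6 to 73.8 CPM in mutants and 21.6 to 31.1 CPM in controls. Pecam1 averaged 44.6 and 24.6 CPM and Cdh5 0.619 and 0.332 CPM in mutants and controls, and neither passed. Cldn5 and Ly6c1 were not tested, with mutant means of 0.137 and 0.0685 CPM. The B cell gene Cd79b fell (-1.33 ± 0.25, edgeR adjusted p = 0.00457), while Ighm (-0.339) and Cd79a (-0.352) did not pass. Microglial markers summed to 43770 to 45970 CPM in mutants and 49820 to 50640 CPM in controls, and P2ry12 fell (-1.10 ± 0.20, 0.00391). In bulk RNA, fewer cells of a type and less RNA per cell cannot be told apart. The part of these markers in the class I rise was not tested.

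With the genotype read from the sample record, none of the 9 genes passed in this comparison, where 0.00603% of all genes were called, and all 9 differences were below 0 (H2-D1 -1.01, edgeR adjusted p = 1). Without the 4 mice whose genotype differs between readings, only M2624 and M2629 were left. In that pair all 9 differences were positive (H2-D1 2.25, Tap1 2.19, B2m 0.87) and none passed, with the spread taken from the other groups.

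**Figure D2:**
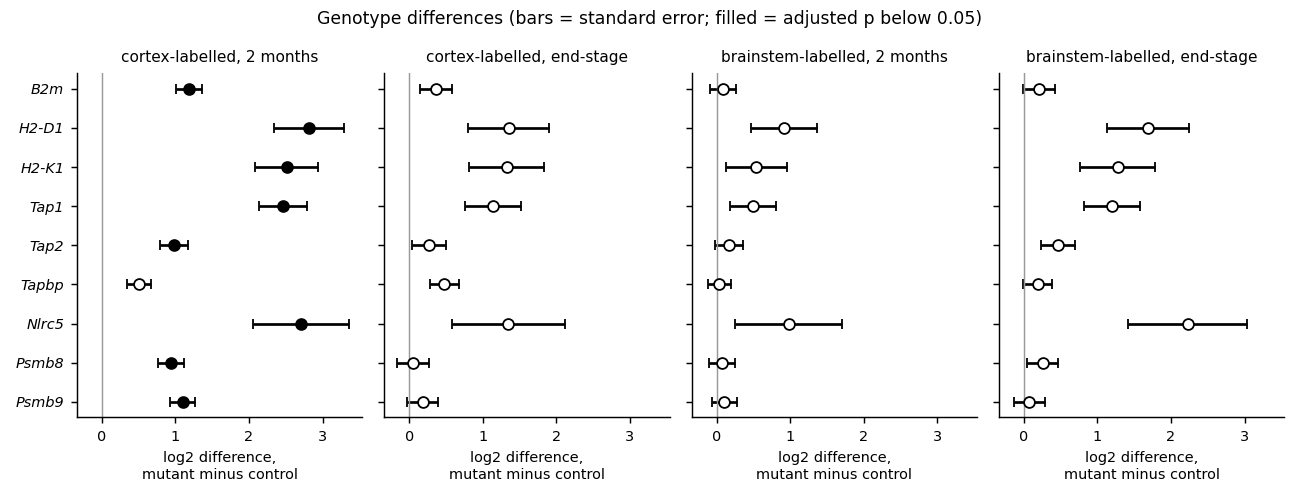
Log2 differences, mutant minus control (x axis), of the 9 genes (y axis) in each labelled region and stage, with standard errors as bars and filled points for an adjusted p below 0.05. Filled points are found in cortex-labelled libraries at 2 months, where Tapbp at 0.50 is the open one and every point is above 0.

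At end-stage in cortex-labelled libraries none of the 9 genes passed, where 4.01% of all genes were called. All 9 differences were positive, with a median of 0.47, and in 6 genes both mutant libraries were above both control libraries, as in 25.1% of all genes. At an unadjusted p below 0.05, 4 of the 9 passed, as did 2951 of all 16595 genes. H2-D1 stood at 6146 and 11500 CPM in mutants M1376 and M1524 and at 2110 and 4795 CPM in controls M1375 and M1521. Its log2 difference was 1.35 ± 0.55 (edgeR adjusted p = 0.202).

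M1524 was above M1376 in 8 of the 9 genes (not B2m). H2-K1 stood at 2277 CPM in M1376 and 4260 CPM in M1524, against 928 and 1685 CPM in the controls (log2 difference 1.32 ± 0.51, edgeR adjusted p = 0.175). Tap1 stood at 118 and 294 CPM in mutants and 86.6 and 100 CPM in controls (log2 difference 1.14 ± 0.38, edgeR adjusted p = 0.118). DESeq2 called Tap1 (adjusted p = 0.0334), and so did edgeR without M1376 (adjusted p = 0.019). B2m, at 4650 and 4433 CPM against 2980 and 4076 CPM, had a log2 difference of 0.36 ± 0.22 (edgeR adjusted p = 0.402).

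Nlrc5 at end-stage stood at 19.1 and 34.6 CPM in mutants and 6.25 and 14.7 CPM in controls (log2 difference 1.35 ± 0.77). Tapbp stood at 774 and 1126 CPM against 709 and 657 CPM (log2 difference 0.47 ± 0.20). Tap2, Psmb8 and Psmb9 overlapped between the groups, with log2 differences of 0.27, 0.05 and 0.18.

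Brainstem-labelled libraries at 2 months showed no call among the 9 genes, where 0.0362% of all genes were called. All 9 differences were positive, with a median of 0.17, every gene overlapped between the groups (7.19% of all genes were higher in every mutant), and none passed at an unadjusted p below 0.05, as 1461 of all 16595 genes did, or by DESeq2. H2-D1 stood at 3102, 1454 and 2570 CPM in mutants and 859, 1483 and 1420 CPM in controls (log2 difference 0.92 ± 0.45, edgeR adjusted p = 0.585). B2m stood at 2101, 2580 and 2331 CPM in mutants and 2162, 2308 and 2153 CPM in controls (log2 difference 0.08 ± 0.18). Among the mutants, M2621 was the lowest for both heavy chains and both transporter genes, at 540 CPM of H2-K1, 64.2 CPM of Tap1 and 102 CPM of Tap2. Nlrc5 was at most 1.9 CPM here and had no count in the brainstem-labelled library of M2618, where 3 counts would be 0.158 CPM.

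At end-stage in brainstem-labelled libraries no gene of the 9 passed either, where 0.151% of all genes were called. All 9 differences were positive with a median of 0.46, and in 4 genes (H2-D1, Tap1, Tap2 and Nlrc5) both mutants were above both controls, as in 18.5% of all genes. At an unadjusted p below 0.05, 4 of the 9 passed, as did 1731 of all 16595 genes, and DESeq2 called none. H2-D1 stood at 2015 and 5476 CPM in M1376 and M1524 and at 661 and 1665 CPM in M1375 and M1521 (log2 difference 1.69 ± 0.56, edgeR adjusted p = 0.244). M1524 was again the higher mutant in all 9 genes. Nlrc5 stood at 5.44 and 17.9 CPM in mutants and 2.45 and 2.54 CPM in controls (log2 difference 2.23 ± 0.81, edgeR adjusted p = 0.308). Tap1 stood at 103 and 181 CPM against 52.1 and 71.4 CPM (log2 difference 1.198 ± 0.385, edgeR adjusted p = 0.232).

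The genotype difference itself was compared between regions. At 2 months all 9 genes had a smaller difference on the brainstem side than on the cortex side, by a median of -1.11 on the log2 scale, and none passed in the fit without the mouse as a term (0.0241% of all genes called; 7 of 9, and 1381 of all 16595 genes, at an unadjusted p below 0.05; 3 of 9 called by DESeq2). Both libraries of a pair come from 1 mouse, and with the mouse as a replicate block 4 of the 9 passed, where 0.723% of all genes were called. These were B2m (-1.14, edgeR adjusted p = 0.0285), H2-D1 (-1.91, 0.000628), H2-K1 (-2.02, 0.00133) and Tap1 (-2.01, 0.00514). At end-stage the 9 differences of differences had a median of 0.06 and none passed (0.0844% of all genes called), also by DESeq2 or at an unadjusted p below 0.05, as 882 of all genes did.

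The genotype difference in cortex-labelled libraries was smaller at end-stage than at 2 months in all 9 genes, by a median of -0.92, but none passed (0.265% of all genes called; 5 of 9, and 1645 of all genes, at an unadjusted p below 0.05; none by DESeq2). Psmb9 came closest, at -0.92 ± 0.27 (edgeR adjusted p = 0.212). In brainstem-labelled libraries 8 of the 9 went the other way, with a median of 0.29, and none passed (0.00603% of all genes called), also by DESeq2 or at an unadjusted p below 0.05, as 733 of all genes did.

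Mutant microglia had lower levels of class I genes when taken from tissue labelled brainstem than from tissue labelled cortex. Averaged over both stages, 6 of the 9 genes passed as lower (10.4% of all genes called, 5.65% called lower). These were B2m (-1.10 ± 0.14, edgeR adjusted p = 0.000102), H2-D1 (-1.73 ± 0.36, 0.00518), H2-K1 (-1.77 ± 0.33, 0.00254), Tap1 (-1.11 ± 0.25, 0.00811), Nlrc5 (-2.59 ± 0.53, 0.00418) and Psmb9 (-0.66 ± 0.13, 0.00432). All 9 genes were higher on the cortex side of all 5 mutant mice, an order that 14.1% of all genes showed. With the mouse as a replicate block 8 of 9 passed (14.3% of all genes called), now with Tap2 (-0.46, 0.01) and Tapbp (-0.35, 0.0459). With the genotype read from the sample record 0 of 9 passed, and the share of all genes called in this comparison under that reading is not given.

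In control microglia part of the genes were also lower on the brainstem side. None passed without the block (0.765% of all genes called; 4 of 9, and 2260 of all genes, at an unadjusted p below 0.05; 2 of 9 called by DESeq2), and 4 of 9 passed with it (3.13% of all genes called): B2m (-0.45, edgeR adjusted p = 0.0495), H2-D1 (-0.96, 0.000179), H2-K1 (-0.78, 0.00363) and Nlrc5 (-2.20, 0.0152). H2-D1 and Nlrc5 were higher on the cortex side of all 5 control mice, an order seen in 7.94% of all genes, and B2m and H2-K1 in 4 of 5. Tap1, Tap2, Psmb8 and Psmb9 were higher there in 2 or 3 of 5 control mice, and Tapbp in 1. At end-stage alone H2-D1 was 2110 and 4795 CPM on the cortex side and 661 and 1665 CPM on the brainstem side of controls, and 6146 and 11500 against 2015 and 5476 CPM in mutants. With the genotype read from the sample record the difference was -1.82 in controls and -1.31 in mutants for H2-D1, and -1.05 and -0.58 for Tap1.

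**Figure D3:**
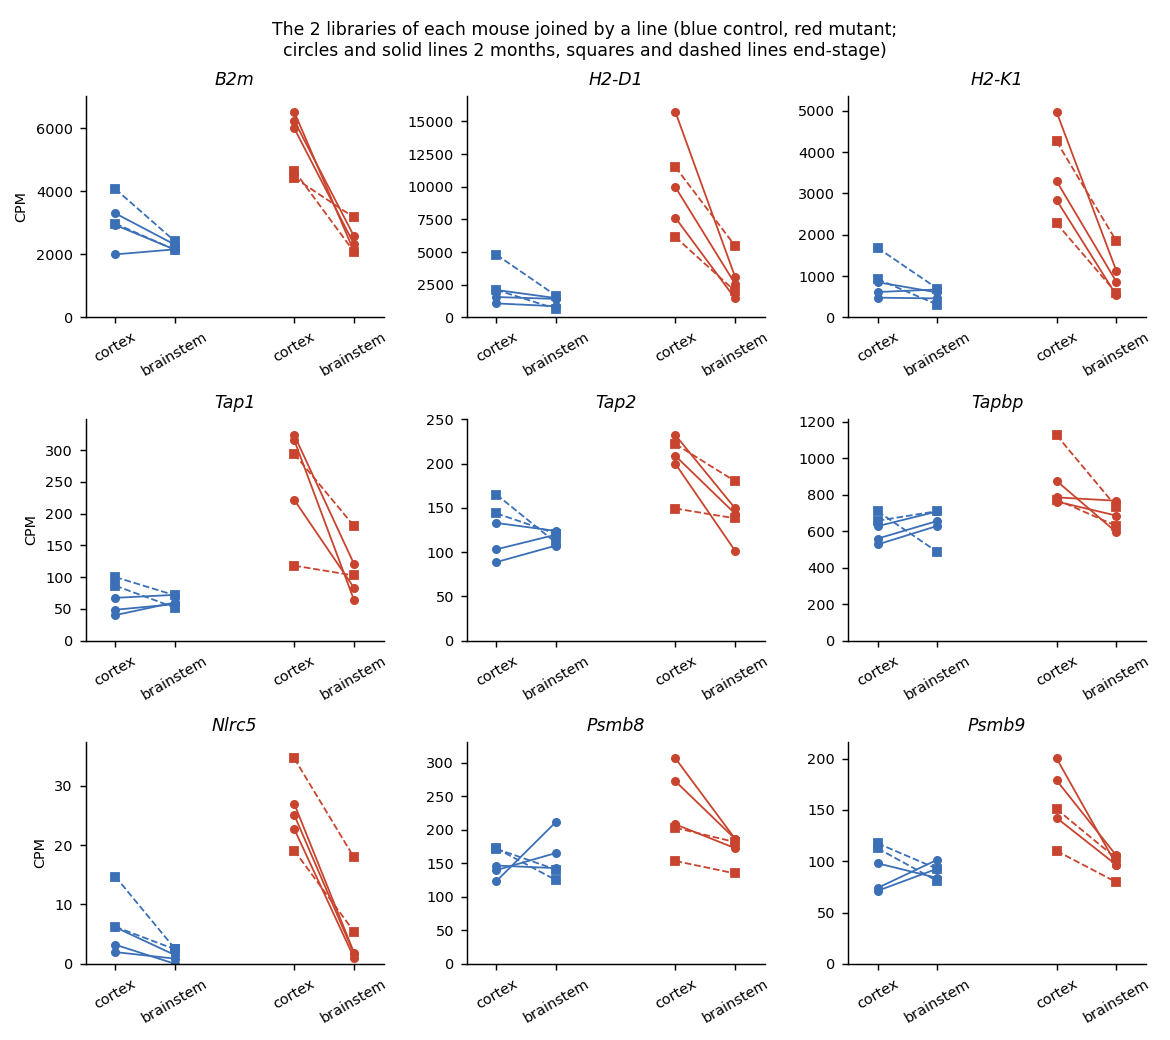
CPM (y axis, linear, from 0) in the cortex-labelled and brainstem-labelled library of each mouse, joined by a line, for 5 control mice (blue) and 5 mutant mice (red), with 2-month mice as circles and end-stage mice as squares. Every red line falls from cortex to brainstem, as in B2m from 6517 to 2101 CPM in M2617. Blue lines all fall in H2-D1 and Nlrc5, while in the other panels they fall in some mice and rise in others. In Tapbp they rise in 4 of 5.

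Markers of microglia and of other cells moved with the region in mutants, and some did so in controls. The sum of the microglial markers was lower on the cortex side of 9 of 10 mice. P2ry12, a receptor of resting microglia, was higher in brainstem-labelled libraries of mutants (log2 difference 1.69 ± 0.16, edgeR adjusted p = 6.06e-06). The oligodendrocyte gene Mobp (-3.69 ± 0.88, 0.0122) and the astrocyte gene Gfap (-4.13 ± 0.69, 0.00166) were lower there, and the NK cell receptor gene Klrd1 was higher (4.73 ± 0.65, 0.000207). Among monocyte markers Ms4a4c was lower (-2.30 ± 0.53, 0.00972) and Ccr2 higher (1.77 ± 0.54, 0.0422), and the sum of the 6 was higher on the cortex side of 9 of 10 mice, as the class I genes were in mutants. The endothelial gene Pecam1 was higher (2.02 ± 0.24, 5.7e-05) and Flt1 lower (-2.98 ± 0.86, 0.0347), and the B cell gene Ighm was higher (0.77 ± 0.21, 0.0241). In controls the astrocyte genes Gfap (-6.00 ± 1.09, edgeR adjusted p = 0.0191) and Aldoc (-2.03 ± 0.45, 0.0445) were called lower in brainstem-labelled libraries. There Mobp (-2.64), Ms4a4c (-1.51), Pecam1 (0.995), Ccr2 (0.282) and Ighm (0.135) had the same sign as in mutants and did not pass. Flt1 (0.363) had the other sign. Sums of 5 oligodendrocyte markers were 95.9 to 121 CPM in cortex-labelled and 48.8 to 85.7 CPM in brainstem-labelled mutant libraries. Their part in the region difference of the class I genes was not tested. 

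Between stages none of the 9 genes passed in any of the 4 groups. The share of all genes called was 0% in cortex-labelled controls, 1.84% in cortex-labelled mutants, 0% in brainstem-labelled controls and 0.0422% in brainstem-labelled mutants. At an unadjusted p below 0.05, 6, 3, 1 and 1 of the 9 genes and 1432, 2340, 1367 and 1704 of all genes passed in these groups, and DESeq2 called 1 gene, in the last. In cortex-labelled controls all 9 genes were on average higher at end-stage, with a median of 0.51, and 8 of 9 (not B2m) were higher in both end-stage libraries than in the 3 younger ones, as were 13.5% of all genes. H2-D1 there was 2110 and 4795 CPM at end-stage and 1076 to 2103 CPM at 2 months (log2 difference 1.13 ± 0.49, edgeR adjusted p = 0.544). In brainstem-labelled mutants the largest change was that of Nlrc5 (2.90 ± 0.73, edgeR adjusted p = 0.2), which DESeq2 called (adjusted p = 0.00386).

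Compared per length of gene model, B2m was the most abundant of the 9 in all 8 groups. In 2-month cortex-labelled controls the order was B2m (3193 ± 780 CPM per kilobase, SD, n = 3), H2-D1 (613 ± 199), H2-K1 (221 ± 64.4), Tapbp (158 ± 14.1), Psmb8 (40.4 ± 3.52), Tap2 (28.7 ± 5.96), Psmb9 (22.2 ± 4.02), Tap1 (9.53 ± 2.55) and Nlrc5 (0.446 ± 0.253). On this scale H2-K1 and Tapbp, and Tap2 and Psmb9, lay within their combined spread. In 2-month cortex-labelled mutants Tap1 reached 52.4 ± 10.4 CPM per kilobase, within the spread of Tap2 at 56.5 ± 4.43 and Psmb9 at 47.5 ± 8. The length used is that of all annotated exons of a gene. It was 3660 bases for Psmb9, 2938 for H2-K1 and 5476 for Tap1, whose longest coding transcripts have 1352, 1619 and 2953. For Tap2 these lengths were 3781 and 3442, and for Tapbp 3628 and 2898. The order of these genes, and which of them overlap, therefore depends on the length chosen.

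Counting can move reads between some of these genes. Of the 100-base windows in the longest coding transcript of H2-D1, 4.64% occur in transcripts of other genes, mainly H2-Q1, and of those of H2-K1, B2m and Nlrc5 none do. Tap1 and Psmb9 overlap on opposite strands by 212 bases and share 113 windows (3.96% and 9.02% of theirs). Tapbp shares 14% of its windows, mostly with Gm19412, an antisense gene with 13 counts over all libraries. The sources used here give neither the strand setting nor the handling of shared reads, so reads in these windows cannot be told apart.

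The other genes of the pathway came from lists written with earlier results of these data known. In cortex-labelled libraries at 2 months, of 14 tested genes of further class I or class I-like heavy chains 6 rose and 1 fell, beside 3.64% and 1.81% of all genes, with a median log2 difference of 2.01. Among the 6 were H2-Q6 (5.12 ± 0.85, edgeR adjusted p = 0.00193), a nonclassical chain, at 391 to 661 CPM in mutants and 7.11 to 20.5 CPM in controls. H2-M3, which presents formylated peptides, rose by less (1.67 ± 0.25, 0.00115), as did H2-T22 (2.13 ± 0.35, 0.00193). Hfe, a class I-like regulator of iron uptake, fell (-0.87 ± 0.15, 0.00248).

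The loading and proteasome machinery was read against 3.64% of all genes called higher. Of 6 loading and trimming genes 1 rose, Erap1, the peptidase that trims peptides in the endoplasmic reticulum (0.68 ± 0.19, edgeR adjusted p = 0.047). In 5 of the 6 every mutant was above every control, as in 13.4% of all genes: in the chaperones Calr (0.62 ± 0.25, adjusted p = 0.17), Canx, Pdia3 and Tapbpl, at unadjusted p of 0.0236 to 0.0442, and in Erap1. Of 9 proteasome genes 2 rose, Psme1 (0.95 ± 0.20, 0.0077) and Psme2 (1.002 ± 0.188, 0.00435), which form the PA28 activator. The constitutive subunits Psmb5, Psmb6 and Psmb7 did not pass.

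Among 18 transcription factors that act on class I genes 5 rose, beside 3.64% of all genes, and the median was -0.01, as over all genes. Irf7, which drives type I interferon genes, stood at 434, 510 and 464 CPM in mutants and 13.2, 17.1 and 13.1 CPM in controls (5.02 ± 0.86, edgeR adjusted p = 0.0024). Stat2, which carries the interferon signal to the nucleus, rose with it (2.47 ± 0.37, 0.00115), and Irf8 by 0.56 ± 0.15 (0.0385). Irf9, the partner of Stat2, also rose and is named after its value was seen.

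Of 20 interferon response genes 19 rose in this comparison, beside 3.64% of all genes, with a median of 4.43. Bst2 (tetherin) rose from 63 to 89.4 CPM in controls to 372 to 603 CPM in mutants (2.61 ± 0.28, edgeR adjusted p = 0.000106), and Isg15 by 4.16 ± 0.59 (0.000952). In the other 3 genotype comparisons none of the 20 passed, beside 4.01%, 0.0362% and 0.151% of all genes called in the order below, while all 20 differences were positive, with medians of 1.79 (cortex-labelled, end-stage), 2.80 (brainstem-labelled, 2 months) and 3.22 (brainstem-labelled, end-stage). At an unadjusted p below 0.05, 12, 17 and 16 of them passed, as did 2951, 1461 and 1731 of all 16595 genes. In brainstem-labelled libraries at 2 months the interferon response median thus stood at 2.80 beside 0.17 for the 9 genes.

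**Figure D4:**
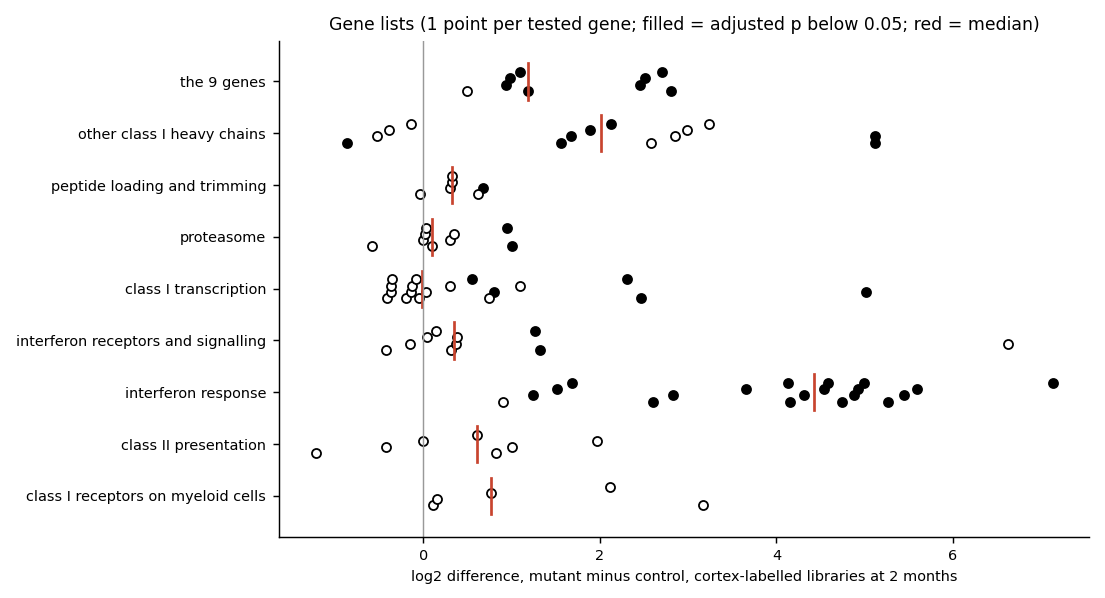
Log2 differences, mutant minus control, in cortex-labelled libraries at 2 months (x axis) for each tested gene of 9 lists (y axis), with filled points for an adjusted p below 0.05 and red lines for medians. The 9 genes have a median of 1.19 with 8 filled points, interferon response genes a median of 4.43 with 19 filled, and class II genes no filled point.

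Interferon genes themselves were low or not counted. Ifnb1, the interferon beta gene, stood at 2.87, 4.2 and 0.824 CPM in 2-month cortex-labelled mutants and 0, 0 and 0.0661 CPM in controls. Every mutant was above every control, but the gene did not pass. Ifng, the interferon gamma gene, had no count in any of the 20 libraries, where 3 counts would be 0.142 to 0.319 CPM. Of 10 tested genes of interferon receptors and signalling, 2 rose, beside 3.64% of all genes, the feedback inhibitors Socs1 (1.27 ± 0.23, edgeR adjusted p = 0.0033) and Socs3 (1.33 ± 0.34, 0.0254).

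Class II presentation, which shows peptides from engulfed material to CD4-bearing T cells, was not called in any of its 7 genes in this comparison. Cd74, the invariant chain, stood at 836, 808 and 436 CPM in mutants and 61, 259 and 211 CPM in controls (1.97 ± 0.58, edgeR adjusted p = 0.0573). H2-Oa, a chaperone chain of class II loading, averaged 102 CPM in mutants and 50.9 CPM in controls (edgeR adjusted p = 0.0539). Ciita, the class II counterpart of Nlrc5, was at most 1.82 CPM in all libraries.

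In mutants the region comparison carried other pathway genes with it. Of the 14 further heavy chain genes 5 were lower in brainstem-labelled libraries, H2-M3 (-1.13 ± 0.19, edgeR adjusted p = 0.00125), H2-T22 and H2-T23 among them, and 2 were higher, Hfe among them, beside 5.65% and 4.79% of all genes. Of the 20 interferon response genes 6 were lower, with Bst2 at -1.16 ± 0.21 (0.00182). Pirb, an inhibitory receptor for class I on myeloid cells, was lower in brainstem-labelled libraries of mutants (-2.21 ± 0.18, 1.14e-06) and of controls (-1.32 ± 0.17, 0.00135).

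Across the 20 libraries the 9 genes varied together. Each gene had a Pearson correlation with the mean of the other 8 of 0.695 (Nlrc5) to 0.965 (H2-K1) on standardised log2 CPM, and H2-D1 with H2-K1 had 0.991. Psmb8 and Nlrc5 were the least alike pair, at 0.288. The 20 values share 10 mice and the contrast in the 2-month cortex-labelled libraries, so these are descriptions. The 6 genes outside the 9 most like their mean were H2-M3 (0.962), Tor3a (0.957), Lgals3bp (0.956), H2-Q6 (0.944), Bst2 (0.943) and H2-Q7 (0.942). Of these H2-M3, H2-Q6 and H2-Q7 are class I heavy chains, and Bst2 is on the interferon response list.

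**Figure D5:**
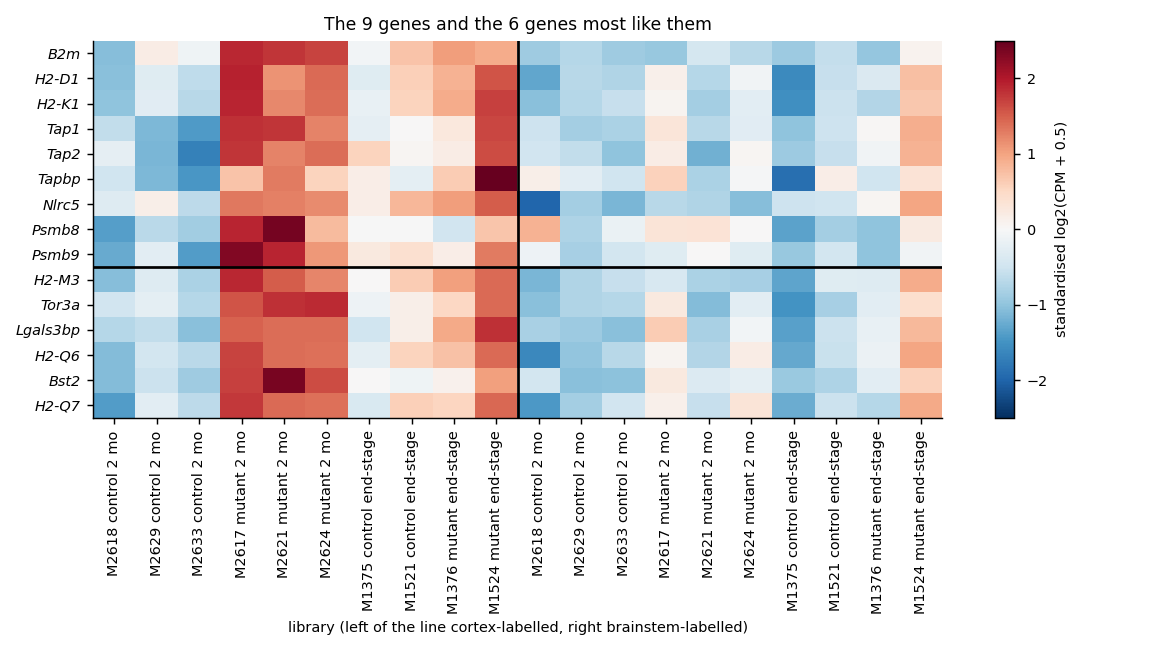
Standardised log2(CPM + 0.5) of the 9 genes (above the line) and of the 6 genes most like them (below) in the 20 libraries, with red for high and blue for low; columns left of the vertical line are cortex-labelled. The 3 cortex-labelled mutant libraries at 2 months are red in every row, as is M1524 at end-stage, whose cortex-labelled library held 1126 CPM of Tapbp, the highest of all.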

How the data were processed

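RNA of microglia from 10 mice had been made into libraries with SMART-Seq v4 and KAPA Hyper Prep kits and sequenced on a NovaSeq, per the labels' protocols. The authors deposited whole-number counts per gene, and FastQC, Subread, edgeR and the mm10 build are named in the submitters' processing notes. How reads shared between genes or strands were counted is not given in the sources used here.

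From the deposited counts, edgeR 4.0.16 in R 4.3.3 was run with TMM scaling and filterByExpr (16595 genes kept), on 8 groups of region, stage and genotype fitted together. The quasi-likelihood test was used with Benjamini-Hochberg adjustment over all genes tested and a threshold of 0.05. Of the identifiers 93 had no symbol and held 0.00123% of counts. Groups had 3 mice at 2 months and 2 at end-stage, each mouse 1 animal. The region term and its product with genotype were also fitted with the mouse as a replicate block, since both libraries of a pair came from 1 animal; same-mouse deviations correlated at 0.09 to 0.229. A log2 difference between regions is brainstem-labelled minus cortex-labelled, between stages end-stage minus 2 months, and between genotypes mutant minus control. The self-test on simulated counts ran before the fits. The limit of 3 counts set for a count of 0 covers counting error only. Each standard error is the absolute log2 difference over the square root of the quasi-likelihood F statistic, so it includes the spread between mice.

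The 9 genes and all lists were chosen with earlier results of these data known. The genes named from other lists were those that passed, up to 4 per list by p, or up to 2 where none passed, and some markers of other cells that did not pass. Alternatives were RLE and upper-quartile scaling, DESeq2 1.42.0, no low-count filter, only the groups compared, the other genotype reading, leaving out the 4 mice in doubt, leaving out each mouse, and the block (limma 3.58.1 voom where groups hold different mice). Coordinates are from GRCm38 with GENCODE annotation, and promoters are from RefSeq on GRCm38.p6. Results for some list genes are not reported here.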

Additional observations from a re-analysis of the deposited data

Results flagged for a closer look

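In 4 of the 9 genes the genotype difference at 2 months differed between the labelled regions when the mouse was fitted as a replicate block. The brainstem-labelled minus cortex-labelled difference was -1.14 in B2m, -1.91 in H2-D1, -2.02 in H2-K1 and -2.01 in Tap1 on the log2 scale (edgeR adjusted p = 0.0285, 0.000628, 0.00133 and 0.00514). The fit without the block called none of them (B2m -1.11, adjusted p = 0.242). The sign was the same in all 9 genes in both fits, and each rests on the reading of the 2-month genotypes by column name.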

How the results depend on the processing

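The counts here are of the 9 genes called. With the 2-month genotype taken from the sample record, the cortex-labelled 2-month count went from 8 to 0 and the differences turned negative: B2m -0.55, H2-D1 -1.01, H2-K1 -0.98, Tap1 -1.06, Tap2 -0.31, Nlrc5 -1.05, Psmb8 -0.62 and Psmb9 -0.73 (edgeR adjusted p = 1 for each). The region count in mutants went from 6 to 0, with no share of all genes given for that reading. Without the 4 mice read differently, these counts were 0 and 2, with 1 mouse per genotype at 2 months whose spread is assumed to be that of the other groups. DESeq2 called 1 gene in cortex-labelled libraries at end-stage, 3 for genotype by region at 2 months, 2 for region in controls and 1 for stage in brainstem-labelled mutants, where edgeR called 0. Without a low-count filter (33450 genes tested) the counts were 3 (cortex side) and 4 (brainstem side) for genotype at end-stage. They were 1 for genotype on the brainstem side at 2 months, 5 for genotype by region at 2 months and 3 for genotype by stage in cortex-labelled libraries. They were 4 for region in controls, and 4, 1 and 2 for stage in cortex-labelled controls, brainstem-labelled controls and brainstem-labelled mutants. The cause of these added calls was not tested. For region in mutants H2-D1 had an edgeR adjusted p of 5.56e-40 without the filter and 0.00518 with it, at the same difference of -1.73. The shares of all genes called by DESeq2 and without the filter are not given here, so these counts cannot be set against them. With the mouse as a replicate block, genotype by region at 2 months went from 0 to 4 and region in controls from 0 to 4, and 2 more genes passed for region in mutants; no call was lost under the block. Leaving out each mouse in turn gave 7 to 8 calls in cortex-labelled libraries at 2 months, 0 to 1 at end-stage (Tap1 without M1376), 6 to 7 for region in mutants and 0 to 1 for genotype by stage in cortex-labelled libraries (Tap1 without M1524, -2.12, edgeR adjusted p = 0.0463), and 0 in the other comparisons. RLE and upper-quartile scaling and fitting only the groups compared lost none of the 14 calls. With 2 mice per group at end-stage, precision is limited by the number of mice. Nlrc5 held 40 to 532 counts per library there, and brainstem-labelled mutants M1376 and M1524 differed, at 5.44 and 17.9 CPM. Its counts were fewer in brainstem-labelled libraries at 2 months (0 to 35). Ifnb1 was low and Ifng had no count.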
